A study of Mus musculus with 7 samples.

Results

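The genes described here encode the proteins of the light response of cones: the opsins *Opn1sw* and *Opn1mw*, the transducin subunits *Gnat2*, *Gnb3* and *Gngt2*, the phosphodiesterase subunits *Pde6c* and *Pde6h*, the channel subunits *Cnga3* and *Cngb3*, and the cone arrestin *Arr3*. They were chosen by name, as the 10 genes of 48440 in the count table that carry these symbols, with no measured value in the rule itself. Expression was measured by bulk RNA-seq in 7 pools of whole mouse retina at embryonic day 16, 36 retinas in all. All animals carried *Chx10-Cre*, which expresses Cre recombinase in retinal progenitors. The wildtype (WT) pool had no other allele in its label and held 6 retinas, the 3 heterozygous (Het, Chx10-Cre;Ptbp1lox/WT) pools held 5, 5 and 6, and the 3 knockout (KO, Chx10-Cre;Ptbp1lox/lox) pools held 4, 4 and 6. The floxed segment is the promoter and first exon of *Ptbp1*, which encodes an RNA-binding repressor of neuronal splicing, so Cre removes it from one or both alleles in the progenitors and their daughters, and cells that never had Cre keep it. Nothing states whether pools of a genotype came from separate litters, so a p-value here measures the spread between these pools.

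In a cone, light isomerizes the chromophore of an opsin, the opsin activates transducin, and transducin releases the inhibition of a phosphodiesterase that hydrolyzes cGMP. The fall in cGMP closes a cyclic nucleotide-gated channel of A and B subunits and the cell hyperpolarizes, and arrestin then ends the response by binding the phosphorylated opsin. Mouse cones are born in the embryo, before most rods, and complete their outer segments only after birth, with short-wavelength opsin appearing before middle-wavelength opsin.

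The upstream sequences of *Opn1sw*, a gene that differed between genotypes, and of *Opn1mw*, *Arr3* and *Pde6h*, which stayed near the limit of detection, are shown so that the genes can be compared at their start sites. Each is the stretch of 120 bases that ends at the RefSeq transcription start (GRCm38.p6), written 5′ to 3′ on the strand of the gene. Capitals mark TAATCC, the core motif of the photoreceptor homeodomain factors Crx and Otx2, and its close relatives TAATCT and TAAGCC, on either strand.
*Opn1sw*, chr6:29380514-29380633, minus strand: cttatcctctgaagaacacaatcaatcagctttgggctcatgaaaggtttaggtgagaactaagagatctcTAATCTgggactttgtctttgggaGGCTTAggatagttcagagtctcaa
*Opn1mw*, chrX:74127346-74127465, plus strand: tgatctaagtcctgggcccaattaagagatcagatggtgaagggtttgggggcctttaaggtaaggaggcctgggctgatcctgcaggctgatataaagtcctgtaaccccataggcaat
*Arr3*, chrX:100605377-100605496, plus strand: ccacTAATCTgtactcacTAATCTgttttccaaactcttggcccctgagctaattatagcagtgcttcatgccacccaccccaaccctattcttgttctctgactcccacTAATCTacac
*Pde6h*, chr6:136954403-136954522, plus strand: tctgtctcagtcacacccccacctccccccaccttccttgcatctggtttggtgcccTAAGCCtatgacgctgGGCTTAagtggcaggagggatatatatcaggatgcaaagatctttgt
The letters were chosen after the sequences had been seen. *Opn1sw* held 2 matches, *Arr3* 3 and *Pde6h* 2, and *Opn1mw* held none within 250 bases of its start. Among all 32851 promoters of the table, 6.3% held TAATCC, 7.3% TAATCT and 8.2% TAAGCC in the 250 upstream bases, and 19.9% held at least 1 of the motifs. A match is only a description of these letters, and genes with a match were found both among those that rose and among those near the detection limit. The other members with an entry were *Gnat2* and *Cnga3*, so 6 of the 10 genes had an upstream sequence in the table. *Gnat2* had 1 match, 19 to 14 bases before its RefSeq start, in a stretch that GENCODE annotates as its first exon. *Cnga3* had 1 match, before the second of its 2 starts.

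The libraries held 120593979 to 171117305 counts on genes, so that 3 counts, taken as the floor of detection, corresponded to 0.0177 to 0.0252 CPM, the count scaled by the TMM-adjusted library size. The floor was 0.0202 CPM in WT, and the Het pools had floors of 0.0177, 0.0252 and 0.0198 CPM. Values of the Het and KO pools are given in the order of their library numbers, from Het1 and from KO1. Floors and the Poisson intervals given for WT cover counting error only. *Ptbp1* itself was at 381 CPM in WT, 210 to 234 CPM in the Het pools and 6.04 to 46.9 CPM in the KO pools. Some pools stood apart in genes of other tissues. The summed level of 10 skeletal muscle genes was 314 CPM in Het1 and 4.65 to 5.39 CPM in the other 6 libraries, that of 8 pigmented epithelium genes was 528 CPM in Het1 and 21.1 to 60.4 CPM elsewhere, and that of 9 lens genes ranged from 3.29 CPM in KO1 to 80.7 CPM in Het3. The 4 chromosome Y genes summed to 0.220 CPM in KO2 and to 34.1 to 110 CPM in the rest. No gene of these 4 lists passed edgeR's test between Het and KO with all libraries, and DESeq2 called 1, the lens gene *Mip*, lower in KO, as edgeR did for 3 lens genes without KO3, and their part in the results below was not tested.

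Of the 10 cone genes, 8 were measurable, and 6 of those were higher in KO than in Het. *Opn1sw*, *Gnat2*, *Gngt2*, *Pde6c*, *Cnga3* and *Cngb3* passed edgeR's quasi-likelihood test with a Benjamini-Hochberg adjusted p below 0.05 over all 20019 genes tested and a change of more than 1.2-fold in either direction, the limit that the study's methods set, and no member was lower. By the same limits 7.22% of all genes tested were differentially expressed, and 4.01% were higher in KO. The median log2 fold change of the 8 members was 0.65, against -0.0047 over all genes tested. Each of the 8 passed the filter on low counts in WT or a Het library, so none entered through KO alone. *Gnb3* and *Arr3* were tested and did not pass, and *Opn1mw* and *Pde6h* had too few counts to be tested. In bulk tissue, a change in the number of cells of a type and a change in RNA per cell cannot be told apart. This holds for every rise or fall in level below.

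**Figure D1:**
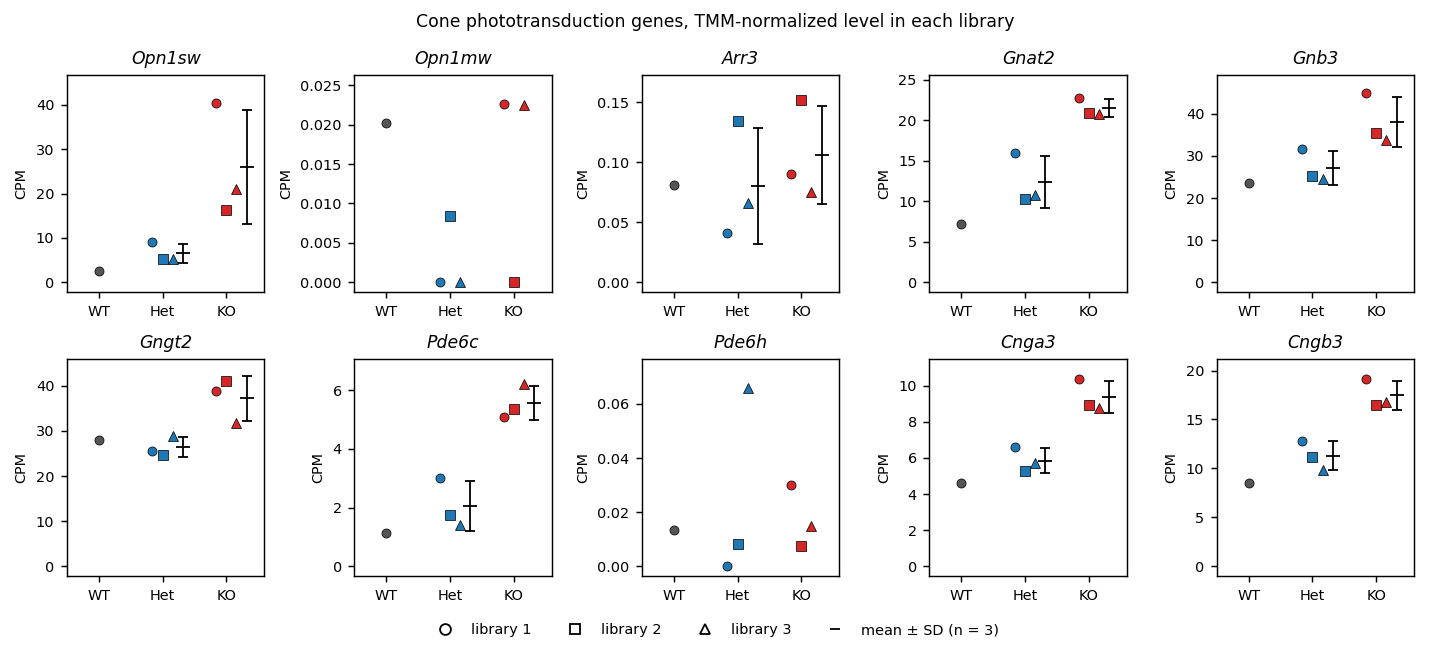
Level of each cone phototransduction gene in CPM (y axis, linear, a separate scale in each panel) in the WT, Het and KO libraries (x axis); circles, squares and triangles are libraries 1, 2 and 3 of a genotype, WT being a single library, and black bars are mean ± SD over 3 libraries for the 8 genes tested. In 7 panels every KO point lies above every Het point, while *Opn1mw*, *Arr3* and *Pde6h* overlap and never exceed 0.152 CPM.

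The cone opsins detect the photon. *Opn1sw* (ENSMUSG00000058831.13, chromosome 6, 29376671 to 29388468 on GRCm38, minus strand) encodes the short-wavelength opsin. It was at 2.54 CPM in WT (exact Poisson interval 2.29 to 2.81), the Het pools gave 9.07, 5.32 and 5.25 CPM, and the KO pools gave 40.5, 16.4 and 21.1 CPM. All KO libraries were above all Het libraries, and WT was below both groups. The KO libraries themselves differed by 2.48-fold between the highest, KO1, and the lowest, KO2. Mean expression was 3.97 times as high in KO as in Het, with a log2 fold change of 1.99 (SE 0.387, 95% interval 1.06 to 2.91, adjusted p = 0.0259, edgeR). Of the exonic bases of *Opn1sw*, 15.5% lie under exons of *Calu* on the opposite strand. *Calu*, which encodes a calcium-binding protein of the secretory pathway, was far more abundant, with means of 282 ± 5.49 CPM in the Het pools and 272 ± 12.6 CPM in the KO pools (SD, n = 3) and a log2 fold change of -0.05 that did not pass the test (adjusted p = 0.457, edgeR). Whether the counting used strand is not given in the sources used here, so reads in the shared stretch cannot be assigned with certainty.

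*Opn1mw* (ENSMUSG00000031394.11, chromosome X, 74127464 to 74150760, plus strand), the middle-wavelength opsin, was at the floor of detection. WT held 3 counts, Het1 to Het3 held 0, 1 and 0, and KO1 to KO3 held 3, 0 and 3. No library exceeded 3 counts, and no fold change is given. The 1 count in the 3 Het libraries together allowed at most 0.0126 CPM (exact Poisson upper limit), and the 3 counts in WT allowed 0.0590 CPM. A difference in *Opn1mw* was therefore not detectable at this depth, in libraries where *Opn1sw* reached 378 to 5368 counts.

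Transducin carries the signal from opsin to the phosphodiesterase. *Gnat2* (ENSMUSG00000009108.15, chromosome 3, 108092789 to 108101432, plus strand), the cone alpha subunit that binds GTP, was at 7.21 CPM in WT (6.78 to 7.65), the Het pools gave 16, 10.3 and 10.7 CPM, and the KO pools gave 22.8, 20.9 and 20.8 CPM. The KO libraries lay close together, at 21.5 ± 1.12 CPM (SD, n = 3), and the lowest was 1.30 times the highest Het library. The log2 fold change was 0.80 (SE 0.169, adjusted p = 0.0327, edgeR). *Gngt2* (ENSMUSG00000038811.13, chromosome 11, 95837216 to 95845734, plus strand), the gamma subunit, was at 27.9 CPM in WT, the Het pools gave 25.6, 24.7 and 29.0 CPM, and the KO pools gave 38.9, 41.0 and 31.6 CPM. Here WT fell inside the Het range and only KO stood apart, with a log2 fold change of 0.49 (SE 0.107, adjusted p = 0.0346, edgeR). Exons of *Abi3*, a regulator of the actin cytoskeleton, cover 12.5% of the exonic bases of *Gngt2* from the other strand. *Abi3* averaged 0.671 ± 0.149 CPM in the Het pools and 0.410 ± 0.104 CPM in the KO pools (SD, n = 3), and its log2 fold change of -0.71 did not pass the test (adjusted p = 0.126, edgeR).

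*Gnb3* (ENSMUSG00000023439.11, chromosome 6, 124834240 to 124840275, minus strand) encodes the beta subunit of cone transducin, which ON bipolar cells use as well. Its level was 23.6 CPM in WT, the Het pools gave 31.7, 25.2 and 24.5 CPM, and the KO pools gave 44.8, 35.5 and 33.7 CPM. No Het library reached the KO range, but the lowest KO value exceeded the highest Het value by a factor of only 1.06. The log2 fold change of 0.49 (SE 0.139, 95% interval 0.16 to 0.82) had an adjusted p of 0.0702 by edgeR and did not pass. *Gnb3* passed in only 3 of 14 alternative settings. These were DESeq2, the tool named in the study's methods, a block on the replicate number, and the fit without Het1 (adjusted p = 0.0395, edgeR). The estimate equalled that of *Gngt2*, the gamma subunit with which it forms a dimer, to the second decimal.

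The cone phosphodiesterase lowers cGMP. *Pde6c* (ENSMUSG00000024992.12, chromosome 19, 38132781 to 38183958, plus strand) encodes its catalytic subunit. It was at 1.15 CPM in WT (0.984 to 1.34), the Het pools gave 3.01, 1.74 and 1.42 CPM, and the KO pools gave 5.09, 5.37 and 6.20 CPM. The Het libraries spread by 2.11-fold, with Het1 highest, and the lowest KO library was still 1.69 times Het1. The log2 fold change was 1.43 (SE 0.279, 95% interval 0.77 to 2.10, adjusted p = 0.0259, edgeR), next in size to *Opn1sw* among the members. *Pde6h* (ENSMUSG00000064330.9, chromosome 6, 136923832 to 136968865, plus strand), the inhibitory subunit, held 2 counts in WT, 0, 1 and 10 in Het1 to Het3, and 4, 1 and 2 in KO1 to KO3. Only Het3 and KO1 rose above 3 counts, so the gene was not tested, and neither its presence in WT nor a difference between Het and KO could be resolved. The 2 counts in WT allowed at most 0.0486 CPM (exact Poisson upper limit). Thus the catalytic subunit was measured in every library while the inhibitory subunit was near the floor in all of them.

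Both subunits of the cone channel were higher in KO. *Cnga3* (ENSMUSG00000026114.14, chromosome 1, 37214434 to 37263384, plus strand), the pore-forming A subunit, was at 4.63 CPM in WT (4.29 to 4.99), the Het pools gave 6.61, 5.25 and 5.71 CPM, and the KO pools gave 10.4, 8.94 and 8.79 CPM. Its log2 fold change was 0.68 (SE 0.113, adjusted p = 0.0175, edgeR). *Cngb3* (ENSMUSG00000056494.7, chromosome 4, 19280850 to 19510623, plus strand), the modulatory B subunit, was at 8.53 CPM in WT (8.07 to 9.02), the Het pools gave 12.8, 11.2 and 9.83 CPM, and the KO pools gave 19.1, 16.4 and 16.8 CPM. Its log2 fold change was 0.63 (SE 0.111, adjusted p = 0.0203, edgeR). For both genes WT was below all Het libraries and the Het libraries were below all KO libraries. Per exon length, the ratio of *Cngb3* to *Cnga3* was 1.55 in WT, 1.45 to 1.79 in Het and 1.55 to 1.60 in KO, so the ranges overlapped (exact two-sided permutation test, p = 0.7, n = 3 and 3).

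*Arr3* (ENSMUSG00000060890.11, chromosome X, 100605497 to 100618493, plus strand), cone arrestin, quenches the activated opsin. It was above the floor in every library but low, with 12 counts in WT, 7, 16 and 10 in Het1 to Het3, and 12, 20 and 10 in KO1 to KO3. In CPM these were 0.0807, then 0.0412, 0.134 and 0.0659, then 0.0905, 0.152 and 0.0751. The groups overlapped, and the log2 fold change of 0.42 had a 95% interval from -0.86 to 1.70 (SE 0.536, adjusted p = 0.632, edgeR). The interval includes no change as well as the sizes measured for *Gnat2* and the channel subunits, so at this depth *Arr3* cannot be placed with or apart from them.

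**Figure D2:**
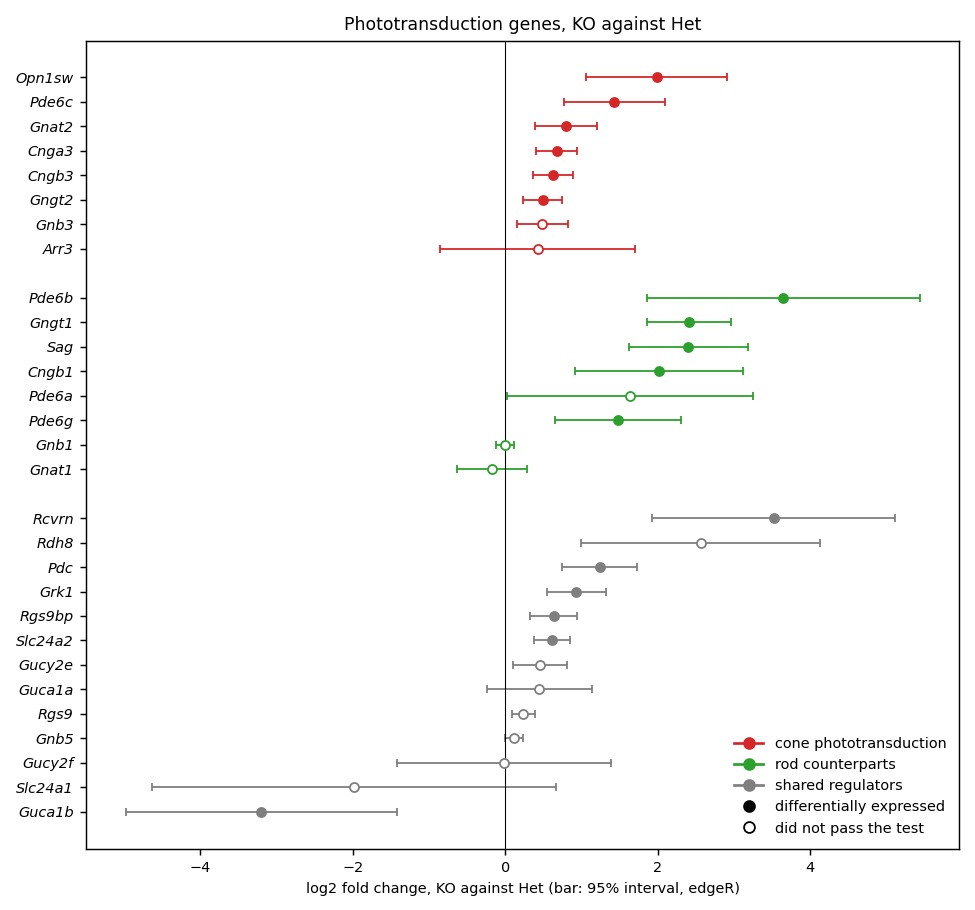
Log2 fold change of KO against Het (x axis) with 95% interval from edgeR for the 8 cone genes tested (red), 8 rod counterparts (green) and 13 other regulators of the rod or cone response (gray, labelled shared regulators); filled circles passed the test and open circles did not. All 8 cone genes have positive estimates, from 0.42 for *Arr3* to 1.99 for *Opn1sw*.

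Across the 8 members tested, the KO libraries lay above all Het libraries in 7, every member but *Arr3*, against 18.6% of all genes tested. The WT library was below all Het libraries in 6 members, against 25.6% of all genes, and the full order of WT below every Het library below every KO library held for the same 6, *Opn1sw*, *Gnat2*, *Gnb3*, *Pde6c*, *Cnga3* and *Cngb3*, against 4.72% of all genes. The step from WT to Het has no test, since WT is a single library. In size, the Het mean was 2.58 times the WT value for *Opn1sw*, 1.79 times for *Pde6c*, 1.71 times for *Gnat2*, 1.32 times for *Cngb3*, 1.26 times for *Cnga3* and 1.15 times for *Gnb3*. For *Gngt2* it was 0.946 times and for *Arr3* 0.997 times the WT value. From WT to KO, *Opn1sw* spanned 10.2-fold, *Pde6c* 4.83-fold and *Gnat2* 2.98-fold, and the channel subunits spanned 2.02-fold and 2.05-fold. In all 6 ordered genes Het1 was the highest Het library. Het1 was also the pool with the muscle and pigmented epithelium genes, and without it 6 members still passed, *Gnb3* in place of *Gngt2*.

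Levels of different genes were compared per exon length, as CPM per kb of exon in the GENCODE M21 annotation. In Het, *Gngt2* ranked first at 14.1 ± 1.20 and *Gnb3* second at 10.3 ± 1.503 (SD, n = 3), with ranges that did not overlap. *Gnat2* followed at 4.12 ± 1.06, *Opn1sw* at 2.56 ± 0.855 and *Cngb3* at 2.40 ± 0.319, and each of these neighbors overlapped the next. *Cnga3* at 1.48 ± 0.174, *Pde6c* at 0.692 ± 0.283 and *Arr3* at 0.0342 ± 0.0205 then came in steps without overlap. In KO, *Gngt2* was at 19.8 ± 2.62, *Gnb3* at 14.4 ± 2.27, *Opn1sw* at 10.2 ± 5.002 and *Gnat2* at 7.17 ± 0.374, again with each range overlapping the next. Thus alpha transducin was the scarcest of the transducin subunits in every library, and *Arr3* stayed below every other gene that was tested.

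The opsin made up a larger share of the set in KO. *Opn1sw* made up 3.24% of the summed level per length of the 10 genes in WT, 8.88%, 6.38% and 5.96% in Het1 to Het3, and 22.7%, 11.4% and 15.7% in KO1 to KO3. It ranked 6 of 10 in WT, 4 or 5 in Het and 3 or 4 in KO. Relative to *Gnat2*, *Opn1sw* stood at 0.413 in WT, at 0.572 to 0.664 in Het and at 0.919 to 2.08 in KO, without overlap between Het and KO. The exact two-sided permutation test gave p = 0.1 for this ratio, the smallest value that 3 libraries against 3 allow, and 0.4 after adjustment over the 4 ratios tested. The ratio of *Gnat2* to *Gngt2* was 0.233 to 0.392 in Het and 0.319 to 0.412 in KO (exact p = 0.3), and that of *Gnb3* to *Gngt2* was 0.602 to 0.883 in Het and 0.618 to 0.822 in KO (exact p = 1). These ratios were chosen after the values had been seen.

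**Figure D3:**
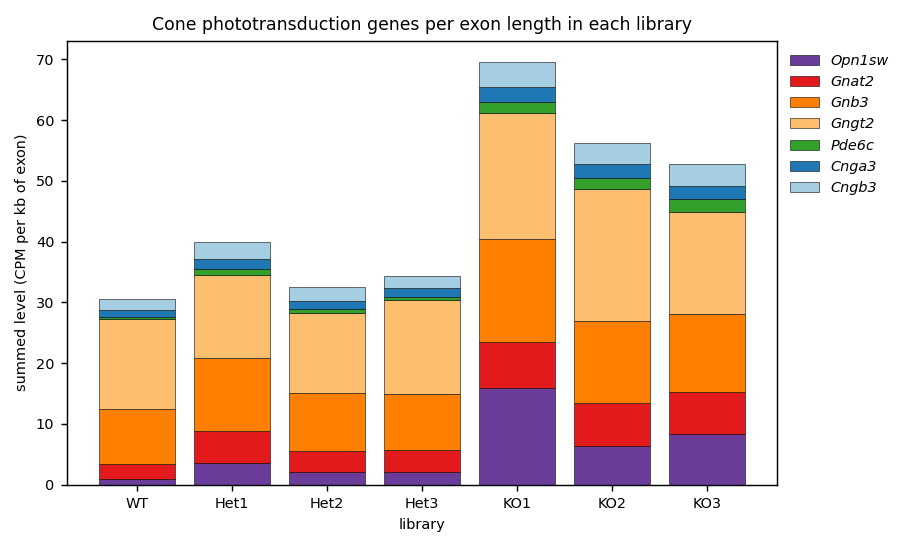
Summed level of the cone genes in CPM per kb of exon (y axis, from 0) in each library (x axis), divided by gene; *Opn1mw*, *Arr3* and *Pde6h* are left out for their low level. The bars of 7 genes total 30.6 in WT, 32.5 to 39.9 in the Het libraries and 52.7 to 69.6 in the KO libraries, and the *Opn1sw* segment at the base is larger in every KO library than in every Het library.

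The cone genes were set beside rod genes of the same role. Of the 9 rod counterparts considered, 8 were tested, and 5 were higher in KO, against 4.01% of all genes tested. These 5 were *Sag* (rod arrestin), *Gngt1* (gamma transducin), *Pde6b* and *Pde6g* (catalytic and inhibitory phosphodiesterase subunits) and *Cngb1* (channel B subunit). DESeq2 called the same number, and 1 to 3 passed in the edgeR fits that left out a library. The median log2 fold change of the 8 was 1.83. It includes *Pde6a*, which passed the filter on low counts only through KO, so its rise is not independent of that filter. *Pde6a* held 3 counts in WT, 8, 1 and 7 in Het1 to Het3, and 22, 15 and 7 in KO1 to KO3. *Pde6a*, *Gnat1* and *Gnb1* did not pass, with log2 fold changes of 1.64, -0.17 and -0.0027. The rod genes other than *Gnb1*, which many cells express, were low in these embryonic retinas. *Sag*, for example, was at 0.384 ± 0.0433 CPM in Het and 2.02 ± 0.889 CPM in KO and *Gnat1* at 0.762 ± 0.0908 and 0.677 ± 0.126 CPM (SD, n = 3). *Cnga1* was too low to be tested. *Sag*, *Gngt1* and *Pde6g* had more in the WT library than the Het mean. They were at 0.982, 0.652 and 2.25 CPM in WT against 0.384, 0.216 and 1.18 CPM in Het. The other rod genes tested had a Het mean above WT. It was 1.74 times the WT value for *Cngb1*, 1.68 for *Pde6a*, 1.08 for *Pde6b*, 1.03 for *Gnb1* and 1.02 for *Gnat1*. Among the cone genes tested, *Gngt2* and *Arr3* also had a Het mean below WT, at 0.946 and 0.997 times.

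The log2 ratio of the cone gene to the rod gene within a library was then compared between Het and KO for 7 pairs. It was higher in KO for *Gnat2* over *Gnat1*, by 1.003, and for *Gnb3* over *Gnb1*, by 0.49. It was lower for *Arr3* over *Sag*, at -1.86, *Gngt2* over *Gngt1*, at -1.84, and *Cngb3* over *Cngb1*, at -1.10. In these 5 pairs Het and KO did not overlap, and each gave the smallest exact two-sided permutation p, 0.1, or 0.14 after adjustment over the 7 pairs. The pairs *Pde6c* over *Pde6a* (0.09, exact p = 0.8) and *Pde6c* over *Pde6b* (-1.71, exact p = 0.3) overlapped. No pair could reach a p below 0.1 with 3 libraries against 3, so whether cone and rod genes rose to different extents is not settled by this test.

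Other proteins regulate the response, several of them in both rods and cones. Of 13 such regulators, all were tested, 5 were higher in KO, against 4.01% of all genes tested, and 1 was lower. When a library was left out 0 to 7 were higher, and by DESeq2 6 were higher. The rises were in *Grk1* (opsin kinase, log2 fold change 0.93, adjusted p = 0.0196, edgeR), *Rgs9bp* (anchor of the GTPase-activating complex, 0.64), *Rcvrn* (recoverin, 3.52), *Pdc* (phosducin, a binder of beta-gamma transducin, 1.24) and *Slc24a2* (the cone sodium/calcium, potassium exchanger, 0.62). *Rcvrn* was low, with 8 counts in WT, 14, 8 and 2 in Het1 to Het3, and 129, 42 and 80 in KO1 to KO3. Het3 was below the floor of 3 counts. The size of the *Rcvrn* fold change (SE 0.669, adjusted p = 0.0243, edgeR) therefore rests on few Het counts. *Pdc* was the most abundant of the 5 genes that rose, at 6.95 CPM in WT, 13.3 ± 3.31 CPM in Het and 31.4 ± 5.98 CPM in KO (SD, n = 3). *Guca1b*, an activator of guanylate cyclase, was lower, at 0.928 ± 0.847 CPM in Het and 0.101 ± 0.0487 CPM in KO (SD, n = 3, log2 fold change -3.20, adjusted p = 0.0421, edgeR). Most of this Het level came from Het1, the pool with muscle and pigmented epithelium genes, at 1.90 CPM against 0.361 CPM in Het2 and 0.521 CPM in Het3. Without Het1 the Het mean was 0.441 CPM and the log2 fold change -2.13 (adjusted p = 0.0402, edgeR), and *Guca1b* did not pass in the other 5 fits that left out a library. The members of this list with the highest mean over the 7 libraries, *Gnb5* and *Rgs9*, components of the complex that speeds GTP hydrolysis by transducin, had log2 fold changes of 0.11 and 0.24 and did not pass.

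Among 17 transcription factors of cones and photoreceptors, 4 were higher in KO, against 4.01% of all genes tested, and none was lower by edgeR or DESeq2. When a library was left out 2 to 4 were higher, and 1 was lower without Het1. *Prdm1*, which is active in newborn photoreceptors, was at 35.8 CPM in WT, 102 ± 13.8 CPM in Het and 163 ± 0.949 CPM in KO (SD, n = 3), a log2 fold change of 0.69 (adjusted p = 0.00924, edgeR). *Neurod1* rose by 0.32 on the log2 scale. The rod factors *Nrl* and *Nr2e3* rose by 1.41 and 3.34, the latter from 1.33 ± 0.474 CPM in Het to 13.4 ± 6.47 CPM in KO (SD, n = 3). *Thrb* and *Rxrg*, nuclear receptors known for roles in the choice of cone opsin, did not pass. *Thrb* was at 85.4 CPM in WT, 123 ± 2.34 CPM in Het and 122 ± 11.9 CPM in KO, and *Rxrg* at 28.3, 29.0 ± 1.21 and 28.3 ± 2.25 CPM (SD, n = 3), with log2 fold changes of -0.01 (SE 0.0695, adjusted p = 0.923, edgeR) and -0.04 (SE 0.0651, adjusted p = 0.748, edgeR). *Otx2* and *Crx*, which act in both rods and cones, with log2 fold changes of 0.12 and 0.20, did not pass, and neither did *Rorb*, the most abundant factor of the list, at 0.08. *Thrb*, *Rxrg*, *Otx2* and *Crx* were named after their values had been seen.

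The gene whose profile lay nearest to the mean profile of the 8 cone genes was *Grk1*. Nearness was measured over the 7 libraries as the root mean square difference of centered log2 CPM, among 13743 other genes with a mean of at least 1 CPM. *Grk1* differed by 0.0405, followed by *Tulp1* (0.0694), which encodes a protein needed for transport to photoreceptor outer segments, the serotonin receptor gene *Htr1d* (0.0856), *Prob1* (0.0875) and the transcription factor gene *Klf9* (0.102). The members themselves lay 0.129 (*Cngb3*) to 0.773 (*Opn1sw*) from their own mean. Because these genes were picked for closeness to a profile that is higher in KO than in Het, their own rise follows from the selection. It is no separate result. *Tulp1*, for example, was at 28.6 CPM on average, with a log2 fold change of 0.88.

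Some genes of microglia were also higher in KO. Of 12 genes of microglia and macrophages, all tested, *Cx3cr1* and *Ptprc* passed the test, against 4.01% of all genes tested called higher in KO. They rose by 0.71 and 0.70 on the log2 scale. The median was 0.51, none was at the floor, and the summed level was 59.4 CPM in WT, 54.8 to 80.6 CPM in Het and 74.9 to 103 CPM in KO. *Csf1r*, the most abundant of them, was at 18.1 ± 4.17 CPM in Het and 25.7 ± 2.95 CPM in KO (SD, n = 3) and did not pass by edgeR. DESeq2 called 9 of the 12 higher in KO, *Csf1r* included. Among the 48440 genes listed, 29515 of them with at least 1 count, it called 1061 higher. In the 6 edgeR fits that left out 1 library, 0 or 1 of the 12 were called higher and 1 was called lower without KO3, with 4 to 10 at an unadjusted p below 0.05. Over all genes tested, those fits called 167 to 792 higher in KO. Whether the level of microglia genes bears on the cone genes was not tested.

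The number of cone genes that passed depended on single libraries, while the direction did not. Leaving out Het1, KO1 or KO3 left 6, 4 and 5 members differentially expressed. In those fits 689 of 19703, 672 of 20022 and 792 of 19944 genes tested were called higher in KO. Without KO2 only *Opn1sw* passed (log2 fold change 2.23, adjusted p = 0.0420, edgeR), where 1.41% of all genes were called higher in KO. Without Het2 or without Het3 edgeR called none of the 8, while 7 had an unadjusted p below 0.05 in each fit, and the calls over all genes higher in KO fell to 0.834% and 1.24%. The lowest adjusted p among the members was then 0.0741 and 0.0593. *Opn1sw* ranged from 1.52, without its highest library KO1, to 2.30, without Het1. *Arr3* ranged from 0.07 to 0.98. In each of these 6 fits the estimates of all 8 members were above 0. *Opn1sw* passed in 4 of the 6, *Pde6c*, *Cnga3* and *Cngb3* in 3 each, and *Gnat2*, *Gnb3* and *Gngt2* in 1 each. A test against the fold limit itself (edgeR's glmTreat) called none of the 8, with 7 below an unadjusted 0.05, where 0.525% of all genes were called higher. DESeq2 called 7, the 6 of the edgeR fit and *Gnb3*, where 1061 of all 48440 genes were called higher. Only 29515 of the 48440 had at least 1 count, whereas the edgeR shares are over genes that passed the filter.

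**Figure D4:**
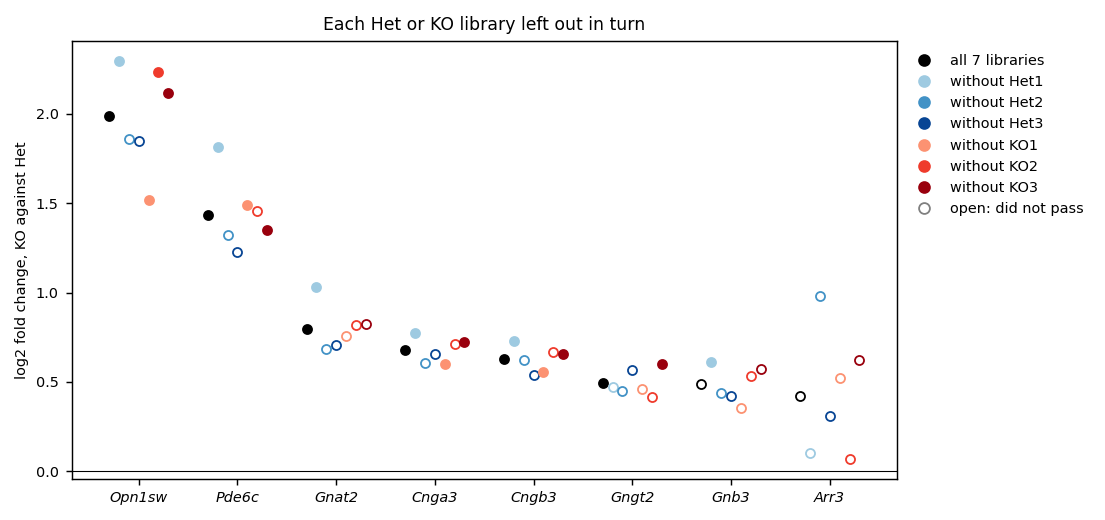
Log2 fold change of KO against Het (y axis) for the 8 cone genes tested (x axis) with all 7 libraries (black) and with each Het (blue) or KO (red) library left out; filled circles passed the test and open circles did not. All points lie above 0, and those without Het2 or Het3 are open for every gene.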

How the data were processed

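Stranded mRNA libraries were prepared from RNA of pooled E16 retinas. The sample labels name TRIzol and the methods a column kit. The authors ran STAR in the rMATS-turbo pipeline against GRCm38 (mm10, GENCODE M10) and took gene totals with featureCounts. The deposited table gives the resulting raw counts. Tool versions, strand and multi-mapping settings are not given in the sources used here. The table has 0 value columns that were left unused, and 121 rows repeat a symbol, so genes were followed by identifier. Totals were 120593979 to 171117305 counts, and replicates differed by 14.0 to 53.2 times the counting variance, so none was a copy.

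Counts were filtered with filterByExpr (20019 genes), normalized by TMM and fitted with edgeR 4.0.16 (glmQLFit, glmQLFTest, all 7 libraries, 1 mean per genotype, R 4.3.3), comparing KO with Het. SE is the size of the log2 fold change over the square root of F. The script was tested on simulated data. WT values carry exact Poisson intervals at 95%. Ratios between genes were compared with exact permutation tests, those of cone to rod genes on log2 CPM with a prior count of 2. Their p-values were adjusted by the Benjamini-Hochberg method, in R for cone to rod ratios and in scipy 1.17.1 for ratios among cone genes. Exon lengths, overlaps and coordinates came from GENCODE M21 on GRCm38, where the identifier of *Pde6c* has a later version, and upstream sequences from RefSeq.

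The members and the 12 lists (116 genes) were chosen with earlier results of these data known. Named genes are the members, *Ptbp1*, the rod counterparts, list genes that passed the test, the 2 genes of highest level in a list (not given for the muscle, lens, pigmented epithelium and chromosome Y lists, which are given as sums), genes overlapping a member, and the 5 genes nearest in profile. Alternatives were DESeq2 1.42.0, RLE and upper-quartile normalization, 2 other filters, Het and KO alone, the replicate block, each library left out, adjusted p alone and glmTreat. DESeq2 on the other lists was added after seeing the data. The authors' splicing and single-cell data were not analysed here. The result for 1 gene is not reported.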

Additional observations from a re-analysis of the deposited data

How the results depend on the processing

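Against 6 cone genes differentially expressed by edgeR, the number ranged from 0 to 6 over the 6 fits that left out 1 library, being 0 without Het2 or Het3 and 1 without KO2, and glmTreat called 0. In these fits with 0 calls 7 members had an unadjusted p below 0.05, and fewer libraries were used when 1 was left out. DESeq2 called 7, adding *Gnb3*, and gave no adjusted p for 3 members. The number was 6 under RLE or upper-quartile scaling, without a filter, with a minimum of 10 counts per library, in a fit without WT and with the adjusted p as the only limit. No estimate changed sign in any alternative. The deviations of same-numbered libraries correlated at -0.20, 0.16 and -0.07, so the numbers were not treated as pairs. With the replicate block 6 members were called, *Gnb3* (adjusted p = 0.00853, edgeR) in place of *Gngt2* (0.0767). Depth limits *Opn1mw*, *Pde6h* and *Arr3*.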

Other observations

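A few genes of ganglion cells and of retinal progenitors were lower in KO, while most of each list did not pass the test. Over all 20019 genes tested, 1445 were called in either direction, 802 of them higher in KO. The median log2 fold change was -0.19 for the ganglion cell genes and -0.0056 for the progenitor genes, against -0.0047 over all genes tested. Of 8 ganglion cell genes, *Isl1*, a transcription factor of ganglion and bipolar cells, and *Gap43*, a growth cone protein, were lower in KO, and none was higher. DESeq2 called 4 lower, adding *Pou4f2* and *Sncg*, and 1 to 3 were called lower when a library was left out. *Isl1* was at 121.4 ± 3.88 CPM in Het and 75.8 ± 4.11 CPM in KO (SD, n = 3, log2 fold change -0.68, adjusted p = 0.00209, edgeR), and *Gap43* at 729 ± 21.8 and 546 ± 47.8 CPM (log2 fold change -0.42, adjusted p = 0.0155, edgeR). Of 8 genes of retinal progenitors, *Fgf15* and *Sfrp2* were lower, with log2 fold changes of -0.49 and -1.05, and none was higher. DESeq2 called 2 as well, and 0 to 2 were called when a library was left out, 0 without Het2. The most abundant of them, *Ccnd1* and *Top2a*, did not pass, at 2890 ± 20.3 and 896 ± 27.5 CPM in Het and 3104 ± 174 and 932 ± 23.1 CPM in KO (SD, n = 3). Likewise *Nefm*, next to *Gap43* the most abundant ganglion cell gene, did not pass, at 423 ± 22.5 CPM in Het and 390 ± 19.2 CPM in KO (SD, n = 3).

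*Gnb3* is also used by ON bipolar cells, so 8 genes of that cell type were examined. The study counts bipolar cells among the late-born types, so at embryonic day 16 counts of these genes need not come from such cells. *Gpr179*, which tethers the signaling complex of the ON bipolar dendrite, was the only one that passed with all libraries, by edgeR and by DESeq2, at 8.92 CPM in WT, 8.997 ± 1.27 CPM in Het and 16.7 ± 1.62 CPM in KO (SD, n = 3, log2 fold change 0.89, adjusted p = 0.0100, edgeR). It did not pass without Het2. The median of the list was -0.16. *Prkca* had a log2 fold change of -0.15, and *Trpm1*, which pigment cells also express, had 59.5 ± 50.3 CPM in Het and 17.5 ± 21.1 CPM in KO (SD, n = 3). Neither passed. Their relation to *Gnb3* was not tested.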
